A study of Mus musculus with 15 samples.

Results

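The translation initiation factors described here are the 53 genes, of 16199 in the expression table, whose symbol starts with Eif followed by a digit, with the sex-chromosome genes Eif2s3x, Eif2s3y and Eif1ay left out. Their mRNA was measured by RNA-seq in 15 mouse hearts, 3 per group. CELF2, an RNA-binding protein that regulates splicing and mRNA stability, was induced with doxycycline in the diet (2 g/kg) for 12 h, 24 h, 72 h or 7 d in FVB mice of 14 to 16 weeks that carried both MHCrtTA and TRECUGBP2. That dose is the one in the labels, and the study's own sources differ on it. Control hearts carried MHCrtTA alone and received the same diet for 72 h, so the rtTA transgene and the drug were common to all groups, whereas only the 72 h group matched the controls in length of treatment. The promoter of MHCrtTA is that of the cardiomyocyte gene Myh6, the transgene encodes FLAG-tagged human CELF2, and whole ventricle was sequenced. In bulk tissue of this kind, fewer cells of a type and less RNA per cell cannot be told apart. The sample titles carry 1 of 3 numeric codes, called A, B and C here in ascending order, whose meaning the labels do not give. Part of the label text of the induced hearts names Celf1, which does not match their titles and genotypes. The Celf2 row, listed under the older symbol Cugbp2, averaged 324 ± 54.8 RPKM in 7 d hearts, against 9.82 ± 1.37 RPKM in control hearts (SD, n = 3 each).

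Initiation factors bring the small ribosomal subunit, the initiator tRNA and the mRNA together and position them at a start codon. eIF2 carries the initiator tRNA and is recharged by eIF2B, eIF3 is a large scaffold on the small subunit, and eIF4F recognises the mRNA cap and unwinds the 5′ end. The heart adjusts this machinery when it grows or is stressed, mainly through kinases that act on eIF2 and through proteins that hold the cap-binding subunit eIF4E.

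RPKM is here the number of reads on the constitutive coding part of a gene, scaled to the length of that part and to the uniquely mapped reads outside ribosomal and mitochondrial sequence. Levels can thus be set side by side between genes, but only roughly where near-identical copies elsewhere keep reads from mapping to a single place. Of the 53 members, 51 reached a mean of 1 RPKM over the 15 hearts and were tested within the 10557 genes above that level. The oocyte form of the cap-binding protein, Eif4e1b, was listed at 0 in 13 hearts and at 0.14 RPKM or less in the others. Eif5a2, the less common eIF5A gene, stayed between 0 and 1.11 RPKM. The highest level belonged to Eif1, which guards start codon choice, with a mean of 406 RPKM, followed by Eif5a at 260 RPKM, the RNA helicase subunit Eif4a2 at 228 RPKM and the scaffold-like Eif4g2 at 208 RPKM. The lowest belonged to the genes listed as Eif2c1 to Eif2c4, at 1.35 to 3.17 RPKM, and to the eIF2 kinase genes, at 2.26 to 8.95 RPKM. The Eif2c genes, now named Ago1 to Ago4, encode Argonaute proteins of microRNA silencing and share only their older name with initiation factors.

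A gene was called changed at an adjusted p under 0.05 by limma, Benjamini-Hochberg adjusted over all 10557 genes tested. At 12 h against control no member passed, with 0.388% of all genes called, and at 24 h none passed, with 0.0947% of all genes called. By unadjusted p under 0.05 there were 7 members at 12 h and 4 at 24 h, but the share of all genes at that cut was not counted. These counts therefore cannot be set against the shares above, which use adjusted p. At 72 h 1 member, Eif3m, passed, with 0.597% of all genes called. At 7 d 5 of 51 members passed, 3 higher (Eif3h, Eif5 and Eif4g1), with 5.83% of all genes higher, and 2 lower (Eif3m and Eif4ebp3), with 4.16% of all genes lower. That is 9.8% of the members, beside 9.99% of all genes, a share near that of the whole table. The median log2 change of the members at 7 d was 0.08, and that of all genes was 0.03.

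**Figure D1:**
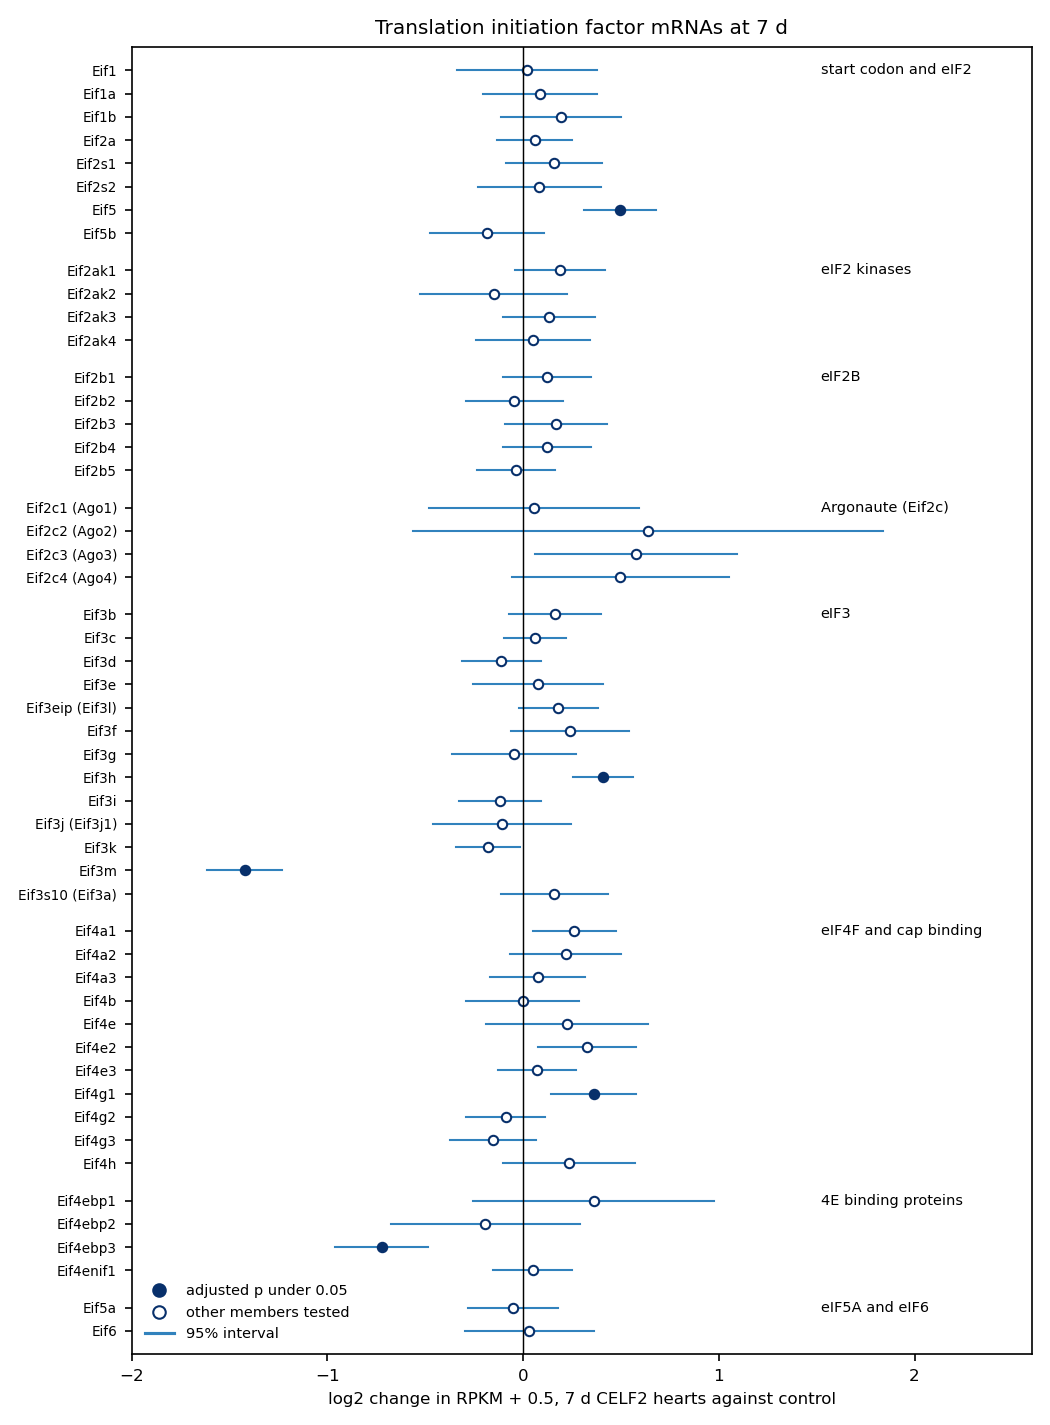
Log2 change in RPKM + 0.5 at 7 d against control for the 51 members tested, grouped by role, with 95% intervals from limma. Eif3m lies apart at -1.42, and the other 4 filled points lie between -0.72 and 0.50.

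Eif3m, a subunit of the eIF3 scaffold with a PCI domain, had the largest change of the 51 members tested at 7 d. Its values were 74.5, 70.4 and 70.7 RPKM in control hearts, 72.9, 66.8 and 60.2 RPKM at 12 h, and 73.2, 63.1 and 67.8 RPKM at 24 h. It then stood at 47.25, 50.3 and 49.1 RPKM at 72 h and at 27.6, 25.5 and 26.45 RPKM at 7 d. Every 72 h heart was below every control, 12 h and 24 h heart, and every 7 d heart was below every 72 h heart. The 7 d hearts averaged 26.5 ± 1.06 RPKM, against 71.9 ± 2.28 RPKM in controls (SD, n = 3 each), a log2 change of -1.42 ± 0.09 (SE, limma adjusted p = 5.3e-07).

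At 72 h the log2 change of Eif3m was -0.55 ± 0.09 (SE, limma adjusted p = 0.015), and at 12 h and 24 h it was -0.11 and -0.08 with limma adjusted p of 0.64 and 0.81. Among all 439 genes lower at 7 d, the decrease of Eif3m ranked 20th by size, and its p was the 4th smallest of the 10557 genes. The 7 d call held under each of the 27 alternative settings, with log2 changes of -1.51 to -1.35 and limma adjusted p of 1.1e-10 to 0.0012. The 72 h call was lost under 10 of the 27, among them both rescalings of the hearts and each setting that left out a control, with limma adjusted p up to 0.24. Within title code A alone, which holds 1 heart of each, the 7 d heart had 27.6 RPKM, against 74.5 RPKM in the control.

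The gene lies on chromosome 2, at chr2:104839813-104857237 on the minus strand of mm9, the build the authors mapped to. Its exons overlap those of Ccdc73 on the opposite strand, which stayed between 0.07 and 0.43 RPKM in all hearts. The only other genes above the 1 RPKM filter within 500 kb, Wt1 and Rcn1, had log2 changes at 7 d of -0.24 and -0.27 (limma adjusted p = 0.54 and 0.092). The Eif3m coding sequence also has a near-identical copy without introns, annotated in GENCODE as the pseudogene Gm7658, inside Kcnq5 at chr1:21502014-21503137. Of 1125 coding bases, 16 differ between gene and copy and 1 is missing, and the longest stretch without a substitution is 157 bases. Only reads that mapped to a single place were counted, so the level of Eif3m rests on reads that reach such a difference or an exon junction. Kcnq5 itself was at 0.08 RPKM or less in every heart. Gm7658 was not listed in the expression table, so its own level is unknown, and that of Kcnq5 does not give it. The 60-base window of a single coding exon with the most differences shows what separates gene and copy, with the 4 differing bases in capitals (Eif3m at chr2:104853025-104853084, copy at chr1:21502623-21502682, both minus strand, mm9):
Eif3m: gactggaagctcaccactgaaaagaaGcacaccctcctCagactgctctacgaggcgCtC
Gm7658: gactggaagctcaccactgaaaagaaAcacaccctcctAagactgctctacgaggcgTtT

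**Figure D2:**
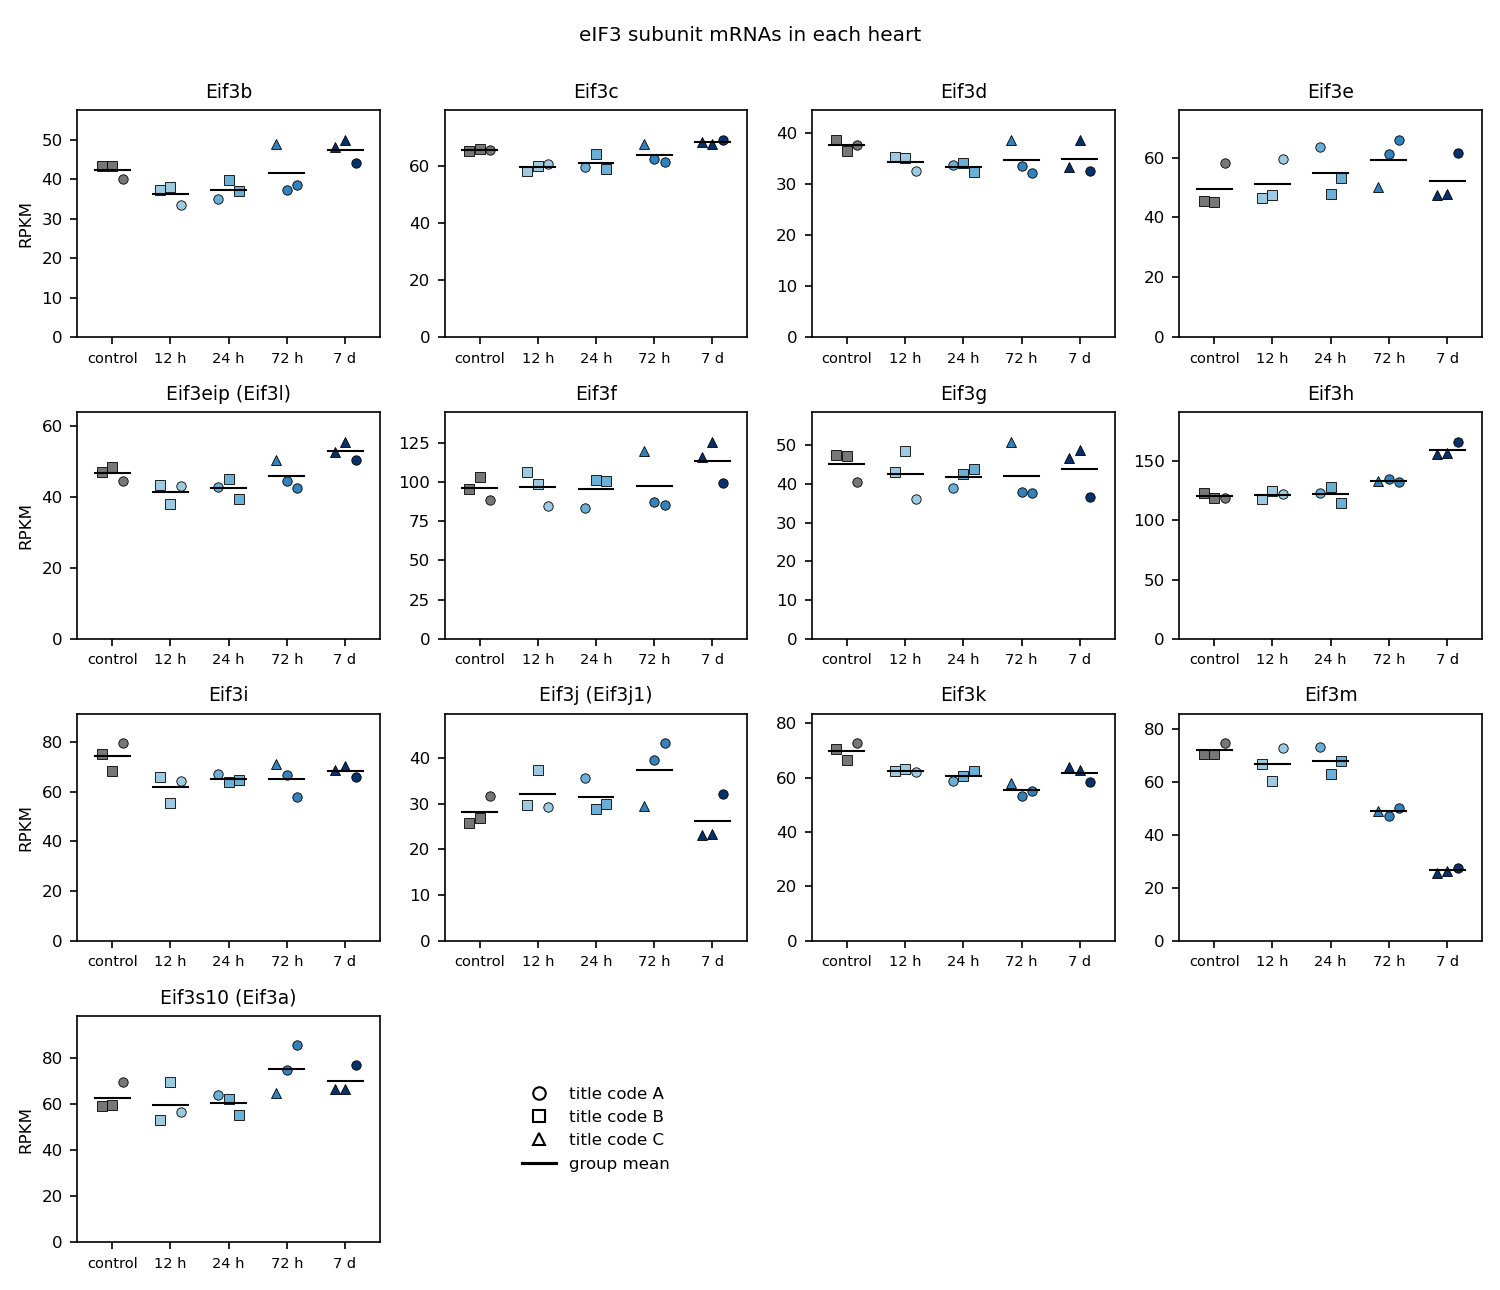
RPKM of the 13 eIF3 subunit mRNAs in each heart, by group, with the title code of each heart as the marker and the group mean as a line. Eif3m falls in steps to 26.5 RPKM at 7 d, Eif3h stands higher at 7 d (160 RPKM), and several others follow the title code more than the group.

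At 7 d the log2 changes of the other 12 subunits against control ran between -0.18 and 0.41 with a median of 0.07, 7 positive and 5 negative, and only Eif3h passed the test. Eif3h, a subunit with an MPN domain, had 167, 156 and 157 RPKM at 7 d, against 119, 123 and 119 RPKM in controls. The groups did not overlap, and the log2 change was 0.41 ± 0.07 (SE, limma adjusted p = 0.0026). At 72 h Eif3h had 135, 132 and 134 RPKM, all above the control hearts (log2 change 0.15, limma adjusted p = 0.38). A full-length copy of its coding sequence on chromosome 17 is 96.3% identical, so it too depends on reads that can be placed.

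Eif3k, one of the smallest subunits, had 58.5, 63.9 and 62.9 RPKM at 7 d, against 72.5, 70.6 and 66.55 RPKM in controls. Every 7 d heart was below every control, but the log2 change of -0.18 did not pass (limma adjusted p = 0.17), nor did that of -0.33 at 72 h (limma adjusted p = 0.068). The 72 h hearts had 53.1, 55.2 and 58.1 RPKM, below every control. With title code as a covariate, with no filter, without 72 h replicate 3 and with both library weightings the 72 h change of Eif3k did pass, and at 7 d it passed with the default weights. The default weights also called Eif3b, Eif3d, Eif3e, Eif3g, Eif3h, Eif3j and Eif3s10 at 72 h, and Eif3b, Eif3d, Eif3eip and Eif3f at 7 d. Gene-by-gene weights also called Eif3e, Eif3g, Eif3h, Eif3j and Eif3s10 at 72 h, and Eif3f at 7 d. Of all 10557 genes tested, the default weights called 1198 higher and 4015 lower at 72 h, and 2553 and 1839 at 7 d. Gene-by-gene weights called 856 and 3099 at 72 h, and 1926 and 1391 at 7 d. The core subunits listed as Eif3s10 (now Eif3a), Eif3b and Eif3c, on which the complex is built, had 7 d log2 changes of 0.16, 0.16 and 0.06, with limma adjusted p of 0.49, 0.40 and 0.69. Eif3d, which can bind the cap of some mRNAs, was at -0.11, and Eif3i and Eif3g, which form a module with Eif3b, were at -0.12 and -0.05. Eif3e and Eif3f were at 0.08 and 0.24, Eif3eip (now Eif3l), the partner of Eif3k, at 0.18, and the loosely bound Eif3j at -0.11. Apart from Eif3k (-0.34 to -0.014), the 95% intervals of these subunits include 0. That of Eif3eip ran from -0.02 to 0.38 and that of Eif3e from -0.26 to 0.41, so equality with the controls is not shown.

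Relative to its complex, Eif3m changed place. The log2 level of Eif3m minus the mean of the 12 other subunits was 0.34 ± 0.02 in control hearts, 0.30 ± 0.17 in 12 h hearts and 0.32 ± 0.11 in 24 h hearts (SD, n = 3 each). It was -0.23 ± 0.06 in 72 h hearts and -1.15 ± 0.06 in 7 d hearts (SD, n = 3 each). Among the 13 subunits Eif3m ranked 3rd to 5th from the top in the control, 12 h and 24 h hearts, 8th to 10th at 72 h and 12th or 13th at 7 d. The mean of the other 12 was 5.90 ± 0.02 at 7 d, against 5.84 ± 0.02 in controls on the same log2 scale. This comparison was chosen with results of these data in view and is given as a description.

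**Figure D3:**
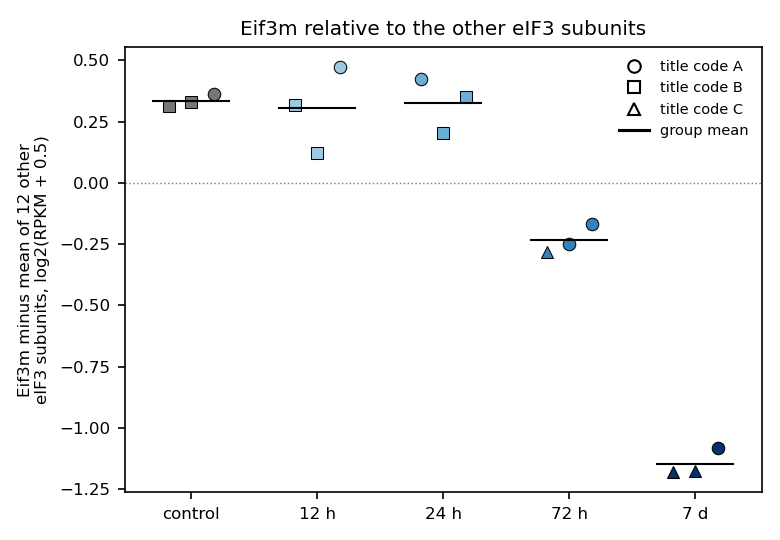
Log2(RPKM + 0.5) of Eif3m minus the mean over the 12 other eIF3 subunits in each heart, by group, with the title code as the marker and the group mean as a line. The 7 d hearts lie between -1.18 and -1.08 and the controls between 0.31 and 0.36, with the 72 h hearts between them.

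Among the factors that deliver the initiator tRNA and recognise the start codon, Eif5 passed at 7 d. Eif5 triggers GTP hydrolysis on eIF2 once the start codon is found. It had 68.8, 63.0 and 65.9 RPKM at 7 d, against 50.05, 44.9 and 45.0 RPKM in controls. The groups were clear of each other, with a log2 change of 0.50 ± 0.09 (SE, limma adjusted p = 0.0022). At 12 h, 24 h and 72 h its log2 changes were 0.24, 0.22 and 0.15, none past the threshold, although that at 12 h passed with title code as a covariate and with both library weightings. Intronless relatives of its coding sequence occur at 4 other places, at 90.7% identity or less. The eIF2 subunit genes Eif2s1 (alpha) and Eif2s2 (beta) had 7 d log2 changes of 0.16 and 0.08, Eif1 0.02, and Eif5b, which joins the ribosomal subunits, -0.18, none past the threshold. Eif1b and Eif2a, an alternative carrier of the initiator tRNA, were at 0.19 and 0.06. Eif1a, which scans with Eif1, had the lowest level of the class, at a mean of 7.60 RPKM, and was at 0.09.

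No eIF2B subunit and no eIF2 kinase gene passed against control in the fit as reported. The eIF2B genes had 7 d log2 changes of -0.04 to 0.17, with mean levels between 9.07 RPKM for Eif2b3 and 27.4 RPKM for Eif2b4. Of the kinases, which phosphorylate eIF2 and so lower initiation, Eif2ak1 (activated by lack of heme) was at 0.19, Eif2ak2 (activated by double-stranded RNA) at -0.15, Eif2ak3 (activated by endoplasmic reticulum stress) at 0.13 and Eif2ak4 (activated by amino acid lack) at 0.05. Their limma adjusted p ran from 0.32 for Eif2ak1 to 0.87 for Eif2ak4. Eif2ak2 had 5.04, 3.41 and 2.55 RPKM at 12 h and 3.71, 3.04 and 3.47 RPKM at 24 h, against 5.47, 5.10 and 4.90 RPKM in controls. The 24 h hearts were all below the controls and the 12 h hearts overlapped them, with log2 changes of -0.48 at 12 h (limma adjusted p = 0.28) and -0.54 at 24 h (limma adjusted p = 0.34). With title code as a covariate and with both library weightings Eif2ak2 passed at 12 h and at 24 h, and it passed at 12 h without 12 h replicate 1. Eif2b5 passed at 12 h with title code as a covariate and with the default weights, at -0.25 in the fit as reported (limma adjusted p = 0.29). Eif2b1 and Eif2ak4 passed at 12 h with a library weighting only. At 72 h Eif2b3 and Eif2b5 passed with both library weightings. At 7 d against control Eif2ak1 passed with both, and Eif2ak2, Eif2b3 and Eif2b4 with the default weights alone. Of all 10557 genes tested, the default weights called 1198 higher and 4015 lower at 72 h, and gene-by-gene weights 856 and 3099. At 7 d against control they called 2553 and 1839, and 1926 and 1391. At 12 h they called 358 and 1650, and 219 and 1136, and title code as a covariate 117 and 655. At 24 h the counts were 52 and 239, 35 and 183, and 58 and 268 in the same order. Calls under these weights were thus common over the whole table at 72 h and 7 d.

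Of the cap-binding complex, Eif4g1, the scaffold that joins cap-binding protein and helicase, had 115, 119 and 125 RPKM at 7 d, against 87.5, 89.6 and 103 RPKM in controls. No 7 d heart overlapped a control, and the log2 change was 0.36 ± 0.10 (SE, limma adjusted p = 0.038). This call was lost in 10 of 27 alternative settings, including title code as a covariate (limma adjusted p = 0.15), and the change was -0.01 with title code and Y-linked mRNA together. Across all its alternatives the limma adjusted p of Eif4g1 ran from 0.00036 to 0.97. The cap-binding subunit Eif4e had 85.95, 65.8 and 65.6 RPKM at 7 d, against 75.9, 46.1 and 66.3 RPKM in controls. Those hearts overlapped, and the interval of its log2 change, at 0.22 with limma adjusted p = 0.53, was among the widest of the class. The helicase genes Eif4a1 and Eif4a2 were at 0.26 and 0.22, and Eif4g3, the lowest tested gene of the class at a mean of 18.2 RPKM, at -0.15, none past the threshold. The alternative cap-binding proteins Eif4e2 and Eif4e3 were at 0.33 and 0.07, the helicase cofactors Eif4b and Eif4h at -0.0014 and 0.23, the exon junction helicase Eif4a3 at 0.08 and Eif4g2 at -0.09, again none past the threshold. The Argonaute genes Eif2c1 to Eif2c4 had 7 d log2 changes of 0.06 to 0.64, none past the threshold.

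Eif4ebp3, one of the proteins that hold eIF4E away from the scaffold, was the other member lower at 7 d. It had 6.22, 6.29 and 7.90 RPKM at 7 d, against 11.5, 11.2 and 11.7 RPKM in controls. The groups were well separated, with a log2 change of -0.72 ± 0.11 (SE, limma adjusted p = 0.0011). At 72 h it had 9.39, 9.22 and 9.39 RPKM, below all controls, but the log2 change of -0.28 did not pass (limma adjusted p = 0.27). Its exons overlap those of Ankhd1 on the same strand, so reads in the shared part cannot be told apart. The more abundant Eif4ebp1 had 49.9, 86.2 and 75.9 RPKM at 7 d, against 41.7, 58.9 and 62.3 RPKM in controls, and these hearts overlapped (log2 change 0.36, limma adjusted p = 0.50). Its code A heart was the lowest in every group that had codes A and B. Eif4ebp2 was at -0.19 and Eif4enif1, the transporter of eIF4E into the nucleus, at 0.05. The elongation-linked Eif5a and the subunit-joining regulator Eif6 were at -0.05 and 0.03, none past the threshold.

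**Figure D4:**
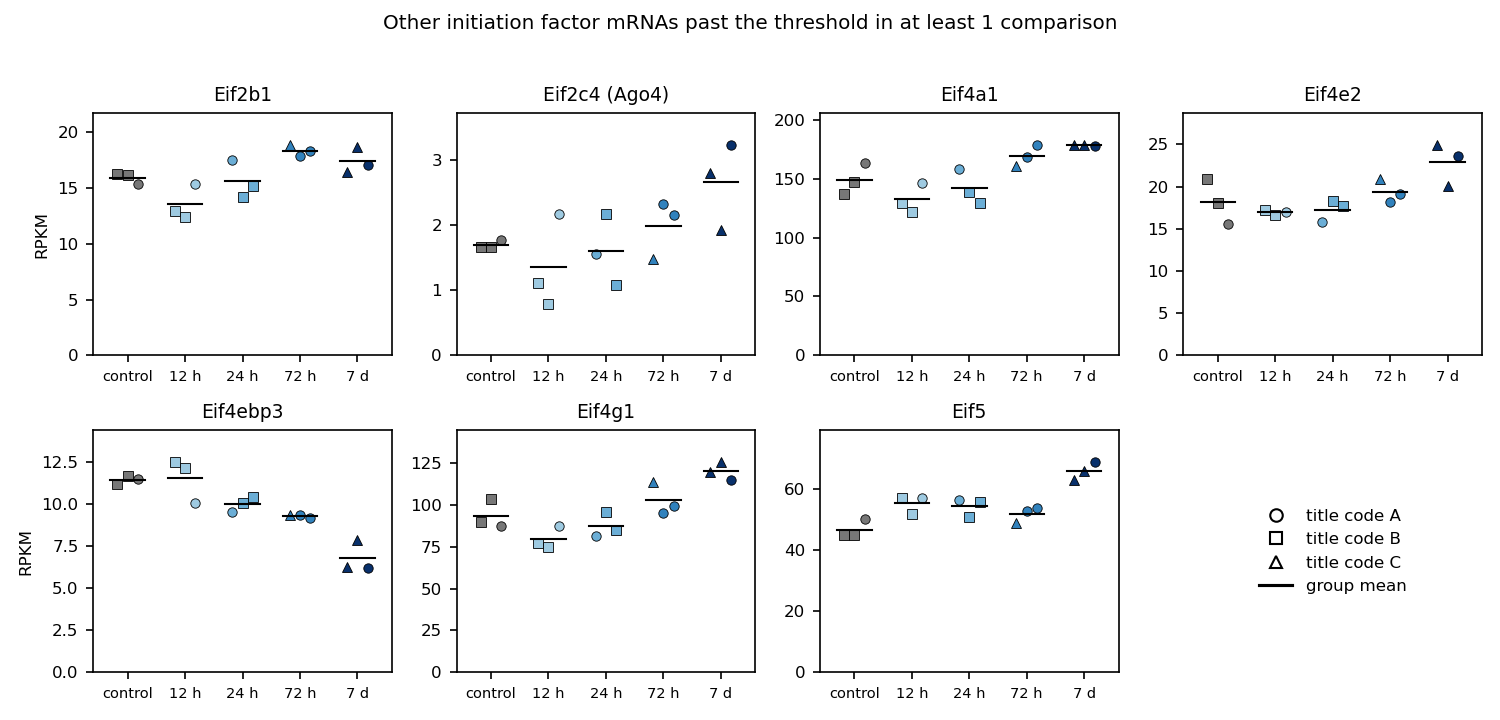
RPKM in each heart of the 7 members outside eIF3 that passed the threshold in at least 1 comparison, by group, with the title code as the marker and the group mean as a line. Eif5 and Eif4ebp3 separate the 7 d hearts from the controls, at 65.9 against 46.6 RPKM and 6.80 against 11.5 RPKM, whereas Eif2c4 spreads from 0.79 to 2.17 RPKM within the 12 h group.

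The 7 d and 12 h groups both carried the transgene, and the control hearts entered their comparison only through the shared estimate of the spread. Of 51 members 10 passed, with 15.6% of all genes called, 8 higher and 2 lower at 7 d, whereas 11.8% of all genes were higher and 3.88% lower. The median log2 change of all genes was 0.13 in this comparison, and changes are best read against that shift. Eif3m had a log2 change of -1.31 ± 0.09 (SE, limma adjusted p = 2.1e-06) and Eif4ebp3 of -0.73 ± 0.11 (SE, limma adjusted p = 0.00074). The 8 higher members were Eif4g1 at 0.59, Eif4a1 at 0.43, Eif4e2 at 0.42, Eif3h at 0.39, Eif3b at 0.38, Eif2b1 at 0.35, Eif3eip at 0.35 and Eif2c4 at 0.81. Eif4a1 had 178, 179 and 178 RPKM at 7 d, against 146, 130 and 122 RPKM at 12 h, without overlap, although 3 other places in the genome hold a coding sequence up to 99.9% identical to it. Eif4g1 had 115, 119 and 125 RPKM at 7 d, against 87.15, 77.2 and 74.5 RPKM at 12 h, again without overlap. The translational repressor Eif4e2 had 23.6, 24.95 and 20.05 RPKM at 7 d, against 17.0, 17.2 and 16.6 RPKM at 12 h, and the lowest 7 d heart was above the highest 12 h heart. Eif2c4 had 3.23, 2.80 and 1.93 RPKM at 7 d, against 2.17, 1.11 and 0.79 RPKM at 12 h, and these overlapped.

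The higher calls changed with the scaling of the hearts and with Y-linked mRNA as a covariate. With median-ratio scaling between hearts 2 members were higher and 2 lower, and with upper-quartile scaling 2 were higher and 3 lower. Over all genes the higher share of the calls was 75.2% as deposited, 51.2% with median-ratio scaling and 45.7% with upper-quartile scaling. All 3 hearts of the 7 d group had Y-linked mRNA and all 3 of the 12 h group lacked it. With Y-linked mRNA as a covariate only Eif3m and Eif4ebp3 passed, and with title code added as well only Eif3m. The calls over all genes under these covariates are not given here.

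Title codes and sex-linked mRNA were spread unevenly over the groups. Y-linked mRNA was near 0 in 6 hearts, namely all 3 at 12 h, 1 at 24 h and 2 controls, and averaged 13.1 to 19.5 RPKM over 4 genes in the other 9. Each 12 h, 24 h and control group held 1 heart of code A and 2 of code B, the 72 h group 2 of code A and 1 of code C, and the 7 d group 1 of code A and 2 of code C, so no control had code C. Between the single code A hearts of 7 d and control, which allow no test, the log2 differences were -1.41 for Eif3m, 0.48 for Eif3h, 0.46 for Eif5, 0.39 for Eif4g1 and -0.84 for Eif4ebp3, all in the direction of the full comparison. In 13 of 51 members the code A heart was above both code B hearts in all 3 of those groups, and in 9 it was below both, as it was in 13.7% and 25.7% of all genes. Eif2c2 had 5.0 RPKM in the code A heart at 12 h and 0.99 and 0.83 RPKM in the code B hearts. Among the eIF3 subunits Eif3e and Eif3m were above in all 3 groups, with mean log2 differences between codes A and B of 0.34 and 0.15, and Eif3b, Eif3f and Eif3g were below, at -0.14, -0.23 and -0.24. Of the other members called in a comparison, Eif5 and Eif4a1 were above, at 0.10 and 0.22.

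Genes that work beside the initiation factors were examined as lists chosen with earlier results of these data known. Of 16 initiation partners without an Eif symbol, 2 were higher and 3 lower at 7 d against control, with a median log2 change of -0.03, beside 5.83% of all genes higher, 4.16% lower and a median of 0.03. Paip2b, an inhibitor of the poly(A)-binding protein, averaged 22.9 RPKM at 7 d, against 11.3 RPKM in controls (log2 change 1.01, limma adjusted p = 0.00091). Pdcd4, which blocks the eIF4A helicase, averaged 7.16 RPKM at 7 d, against 12.5 RPKM in controls (log2 change -0.76, limma adjusted p = 0.00037). The mitochondrial factor Mtif2 was at 0.48, and Denr, which acts in reinitiation, and the poly(A)-binding protein gene Pabpc4 were at -0.43 and -0.44, all past the threshold.

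Of 15 elongation and termination factors 6 were higher and none lower at 7 d against control, with a median log2 change of 0.24, beside the same shares and median of all genes. They were Eef1g (0.52), Eef1e1 (0.54), the release factor Gspt1 (0.48) and the mitochondrial factors Tufm (0.50), Gfm1 (0.38) and Gfm2 (0.47). In the mTORC1 pathway list, 1 of 21 genes passed, the inhibitor Ddit4, which averaged 8.18 RPKM at 7 d, against 26.8 RPKM in controls (log2 change -1.61, limma adjusted p = 0.038). Of 15 genes of the integrated stress response, the program downstream of eIF2 phosphorylation, Gdf15 was higher (log2 change 1.80, limma adjusted p = 0.00048) and Atf4, its central transcription factor, lower (-0.41, limma adjusted p = 0.033).

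Of 8 cardiomyocyte markers, Actc1 was higher and Myh6 and Pln lower at 7 d against control, and the summed level of the list was 35641 to 38488 RPKM at 7 d, against 37390 to 40107 RPKM in controls. No endothelial, fibroblast or macrophage marker passed at 7 d, with summed levels at 7 d of 207 to 271, 469 to 579 and 34.5 to 43.7 RPKM for the 3 lists, against 219 to 228, 537 to 548 and 42.9 to 46.6 RPKM in control hearts. Cfd, lower at 7 d, was the 1 called of 3 adipocyte markers tested, and neither red blood cell marker passed. Summed levels at 7 d were 763 to 844 RPKM for the adipocyte list, against 843 to 916 RPKM in controls. For the red blood cell list they were 532 to 887 RPKM, against 420 to 804 RPKM in controls. No marker was listed at 0 in all hearts, and the part of these shifts in the changes of the members was not tested.

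The letters TGTTTGT and TGTGTG, searched because CELF proteins bind GU-rich RNA, were looked for on the transcript strand in the last 300 bases of the longest GENCODE coding transcript. They occur there in 6.91% and 17.2% of 22217 genes. Neither occurs in that window of Eif3m, Eif3h, Eif5, Eif4g1 or Eif4ebp3, the 5 members called at 7 d. Among the 11 members called in any comparison, 2 hold TGTTTGT there, Eif2b1 and Eif2c4, and none holds TGTGTG. The window leaves out most of each transcript. Over its whole transcript Eif5 holds 1 TGTTTGT and 6 TGTGTG, and Eif3m and Eif4g1 hold 2 TGTGTG each. Eif3h and Eif4ebp3 hold neither. The share of all genes over whole transcripts was not counted, and binding was not tested.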

How the data were processed

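The authors sequenced poly(A)+ RNA from ventricles as paired ends, mapped reads to mm9 with TopHat and Bowtie (versions not given in the sources used here), kept uniquely mapping reads and deposited RPKM over the constitutive coding sequence of RefSeq genes. Whether strand was used in counting, and the reads per heart, are not given, so depth is unknown. Between 1463 and 1977 genes were at 0 per heart.

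RPKM + 0.5 was log2-transformed, genes with a mean under 1 RPKM over 15 hearts were left out (10557 kept), and all 5 groups were fitted together with limma 3.58.1 (trended variance, R 4.3.3) with no further scaling, two-sided. Fold changes on this scale understate those of low genes. Separate animals are named by the labels. The code was tested on simulated data.

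The members and lists were chosen with earlier results of these data known. Named genes are the called members, all eIF3 subunits, extremes of each role class by level or adjusted p, members under the filter, the called genes and smallest adjusted p of each list, and Celf2. A few more members are named to complete their class, after their values were seen. One alternative, gene-by-gene library weights, was added after the data were seen, because the default weights had stopped before convergence. Coding sequences were aligned to mm9 with minimap2 (at least 50% of the length and 85% identity).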

Additional observations from a re-analysis of the deposited data

Results flagged for a closer look

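Both times of induction share the control hearts, so the difference between their effects is the comparison of 7 d with 12 h. By that limma test the effect at 7 d differed from the effect at 12 h in 10 members. The difference in log2 change was -1.31 for Eif3m and -0.73 for Eif4ebp3. It was 0.59 for Eif4g1, 0.43 for Eif4a1, 0.42 for Eif4e2, 0.39 for Eif3h, 0.38 for Eif3b, 0.35 for Eif2b1, 0.35 for Eif3eip and 0.81 for Eif2c4. With Y-linked mRNA as a covariate only Eif3m and Eif4ebp3 kept the difference, and with title code added as well only Eif3m. The call of Eif2c4 was lost in 17 of 26 alternative settings and that of Eif2b1 in 15 of 27, whereas that of Eif3m held in all 27.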

How the results depend on the processing

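The value at 7 d of Eif3m held under all 27 alternatives, and of 485 alternative values of the 18 single-gene results 392 kept their direction and their side of the threshold, 90 lost the call and 3 changed sign. The sign changes were Eif3m at 24 h, at 0.034 with median-ratio and 0.027 with upper-quartile scaling, and Eif4g1 at 7 d against control, at -0.015 with title code and Y-linked mRNA together.

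Counts of members called moved by over 1.5 times as follows. With title code as a covariate there were 4 members at 12 h, 1 at 24 h and 2 at 72 h. Of all 10557 genes that covariate called 117 higher and 655 lower at 12 h. It called 58 and 268 at 24 h, and 132 and 363 at 72 h. With Y-linked mRNA as a covariate there were 0 members at 72 h and 2 for 7 d against 12 h. Over all genes that covariate called only 3 higher and 3 lower at 72 h. With both covariates there were 0 members at 72 h, 1 at 7 d against control (Eif3m) and 1 for 7 d against 12 h. Over all genes both covariates called 74 higher and 96 lower at 7 d against control. The compared groups alone gave 0 members at 72 h and 5 for 7 d against 12 h. With median-ratio scaling there were 0 at 72 h and 4 for 7 d against 12 h, and with upper-quartile scaling 0 and 5. Without a filter there were 2 members at 72 h, with 18 genes higher and 29 lower in the whole table. Default library quality weights gave 12 members at 12 h, 1 at 24 h, 25 at 72 h, 25 at 7 d against control and 35 for 7 d against 12 h. Their estimate stopped before convergence. Gene-by-gene weights, chosen after seeing those counts, gave 5, 1, 21, 13 and 32 in the same order. Of all 10557 genes the default weights called 358 higher and 1650 lower, then 52 and 239, and 1198 and 4015, in the same order. For 7 d against control and against 12 h they called 2553 and 1839, and 4704 and 1921. Gene-by-gene weights called 219 and 1136, 35 and 183, and 856 and 3099, then 1926 and 1391, and 3766 and 1309. The causes were not tested.

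Leaving out 1 heart at a time gave 0 to 1 members at 12 h, 0 to 0 at 24 h, 0 to 2 at 72 h, 4 to 5 at 7 d against control and 5 to 13 for 7 d against 12 h. Over all genes it gave 9 to 180 calls at 12 h (41 with every heart), 1 to 28 at 24 h (10), 4 to 269 at 72 h (63), 532 to 1266 at 7 d against control (1055) and 824 to 2326 for 7 d against 12 h (1651). The count at 7 d against control moved by over 1.5 times without 7 d replicate 2 or 3 or control replicate 1 or 2, that for 7 d against 12 h without 7 d or 12 h replicate 2 or 3, and those at 12 h, 24 h and 72 h without any of 7, 11 and 12 of the 15 hearts. Leaving out 72 h replicate 1 or 2 or any control ended the 72 h call of Eif3m, and leaving out any 7 d heart ended that of Eif4g1 at 7 d. The higher share of all calls at 7 d against control was 58.4% as deposited, 53.7% with median-ratio and 45.9% with upper-quartile scaling. At 72 h it was 39.7%, 63.5% and 57.4% in the same order, at 24 h 4, 6 and 7 of 10, 10 and 11 calls were higher, and at 12 h the share was 26.8%, 40.7% and 37.7%. No paired analysis was possible because each heart came from a separate animal and the labels pair no hearts between groups.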
